A study of Mus musculus with 14 samples.

Results

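Inhibitory checkpoint receptors are surface proteins that lower the response of a T cell to its antigen receptor. The 10 receptors described here were chosen by gene symbol, as the rows of the read-count table for Pdcd1, Havcr2, Lag3, Tigit, Btla, Cd160, Cd244, Cd200r1, Cd96 and Cd5, out of 24091 genes in all. Ctla4 was kept apart and is given among other inhibitory receptors. Most of these receptors carry tyrosine motifs in their cytoplasmic tail. When a ligand on a neighbouring cell is bound, the tyrosines are phosphorylated and recruit phosphatases such as SHP-1 (Ptpn6) and SHP-2 (Ptpn11), which reverse the phosphorylation driven by antigen. Some members, among them Cd244, Cd160 and Cd96, can also be read as activating, depending on adaptor, ligand or isoform. Persistent antigen, as in chronic infection or cancer, is known to keep several of the receptors high on the same T cells.

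The study compared T cells of leukemic mice with and without the microRNA gene Mir142, as a model of chronic phase (CP) and blast crisis (BC) chronic myelogenous leukemia (CML). Each of 14 mice gave 1 mRNA library from 200000 sorted spleen T cells. The CP CML group were 8 mice with intact Mir142 (genotype Mir142+/+BCR-ABL), and the BC CML group were 6 mice that lacked it (genotype Mir142−/−BCR-ABL). All mice were on the CD45.2 C57Bl/6j background and 6 to 10 weeks old, of either sex. All carried the SCLtTA/BCR-ABL transgene, which the SCL-driven transactivator switches on in blood stem and progenitor cells once tetracycline is withdrawn, and all had been off tetracycline for 3 weeks. The Mir142 deletion was present in every cell of the BC CML mice and not in T cells alone, and non-leukemic mice were not part of this comparison. Sample names of the CP CML mice share one number and those of the BC CML mice another, so genotype and whatever that number stands for cannot be told apart.

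Libraries held 15703702 to 19914531 reads in CP CML and 16145537 to 19399720 in BC CML. Values are normalized counts in CPM, the reads of a gene relative to the scaled size of its library. Mir142 was read at 18.4 to 33.8 CPM in the CP CML mice and had 0 reads in all 6 BC CML libraries. Markers of T cells (10 of the 12 listed are in the table, Trac and Trbc2 are not) summed to 3678 to 4072 CPM in CP CML and 4436 to 4765 in BC CML. Within that list Cd8a rose by a log2 fold change of 0.87 and Cd4 fell by 0.73, while Cd8b1, the partner chain of Cd8a, was at 0.07 (adjusted p = 0.352). Of the CD3 chains Cd3g rose by 0.59, Cd247 fell by 0.32, and Cd3d (-0.08) and Cd3e (0.02) did not pass the test. The 8 naive T cell markers summed to 4919 to 6275 CPM in CP CML against 2702 to 3875 in BC CML. The 7 natural killer (NK) cell markers summed to 107 to 154 CPM against 312 to 572, with Klra4 at 0 in all mice, and the 9 myeloid markers to 60.9 to 434 CPM against 524 to 1319. The 6 B cell markers summed to 33.3 to 125 CPM against 63.5 to 362, the 5 dendritic cell markers to 7.22 to 18.4 against 32.2 to 117, and the 6 basophil and mast cell markers to 4.86 to 10.9 against 19.2 to 49.6. Of the 6 erythroid markers 4 are in the table, at 12.1 to 52.3 CPM against 34.7 to 60.2. The 4 regulatory T cell markers summed to 396 to 462 CPM against 400 to 564, and the 8 follicular helper markers to 316 to 371 against 264 to 381. The T cell, naive, NK, myeloid, dendritic and basophil sums of the groups did not overlap. Most of the dendritic sum was Itgax (9.45 and 62.9 CPM). All 3 dendritic markers that could be tested rose, where 32.6% of all tested genes were called higher. Of the others Siglech was at 0.06 and 0.74 CPM and Xcr1 at 0.33 and 0.35. Likewise, most of the basophil and mast cell sum in BC CML was Kit (3.77 and 25.4 CPM). Of the 4 tested markers of that list Kit and Cpa3 (1.68, adjusted p = 0.0194) rose, and Mcpt8 and Gata2 did not pass the test. Of all tested genes 65.2% were called. The untested Fcer1a (0.27 and 0.86 CPM) and Ms4a2 (0.32 and 0.80) were higher in the mean of BC CML.

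The gene that differs by design makes a hairpin with 2 mature strands. They are shown with the seed, bases 2 to 8, in capitals, because the seed is the part that pairs with a target mRNA. Sequences and positions are from RefSeq on GRCm38.p6, plus strand, at chr11:87756867-87756887 for the 5p strand and chr11:87756903-87756925 for the 3p strand.
mmu-miR-142a-5p: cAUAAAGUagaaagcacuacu
mmu-miR-142a-3p: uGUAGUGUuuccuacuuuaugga
The 3′UTRs of the receptors, the longest per gene in GENCODE vM21 on the same build, were searched on the strand of the transcript for complements of the seeds. The letters searched were ACTTTATA, ACTTTAT and CTTTATA for 5p and ACACTACA, ACACTAC and CACTACA for 3p, where the first is the 8-base site that contains both shorter ones. Cd244 was matched by position, since it is named Cd244a there. Of the 10 receptors 1 held a match, Btla, with 1 site for each strand. Its 3′UTR was 2295 bases long against a median of 1187 bases over 11510 tested genes. The sites are given with 8 bases on each side and the match in capitals, the first at chr16:45250954-45250960 (3′UTR bases 357 to 363) and the second at chr16:45252515-45252521 (bases 1918 to 1924), both on the plus strand.
Btla, 3p site: gatctgctCACTACAcattctag
Btla, 5p site: tgcactccACTTTATtctgttaa
Among the 11510 genes, 12.1% held a match of these kinds for 3p and 23.5% one for 5p. The longest 3′UTR of the list, 2434 bases in Cd244, held none, and the shortest, 81 bases in Lag3, leaves little room for one. A match of letters is not a measured site.

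The level of 7 of the 10 receptors rose in BC CML, that of none fell, and Pdcd1, Lag3 and Btla did not pass the test. Calls came from the quasi-likelihood test of edgeR at an adjusted p of 0.05 (Benjamini-Hochberg, 12248 genes). It called 65.2% of all genes tested, 32.6% higher and 32.7% lower. The median log2 fold change of the receptors was 0.37 against -0.01 over all genes, and the median size of a called change over all genes was 0.43. For 4 receptors (Cd160, Cd244, Havcr2 and Cd96) every BC CML mouse lay above every CP CML mouse, where 36.9% of all tested genes separated the groups in either direction. In bulk RNA from a sorted population, a change in the number of cells that carry a receptor and a change in its RNA per cell cannot be told apart.

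**Figure D1:**
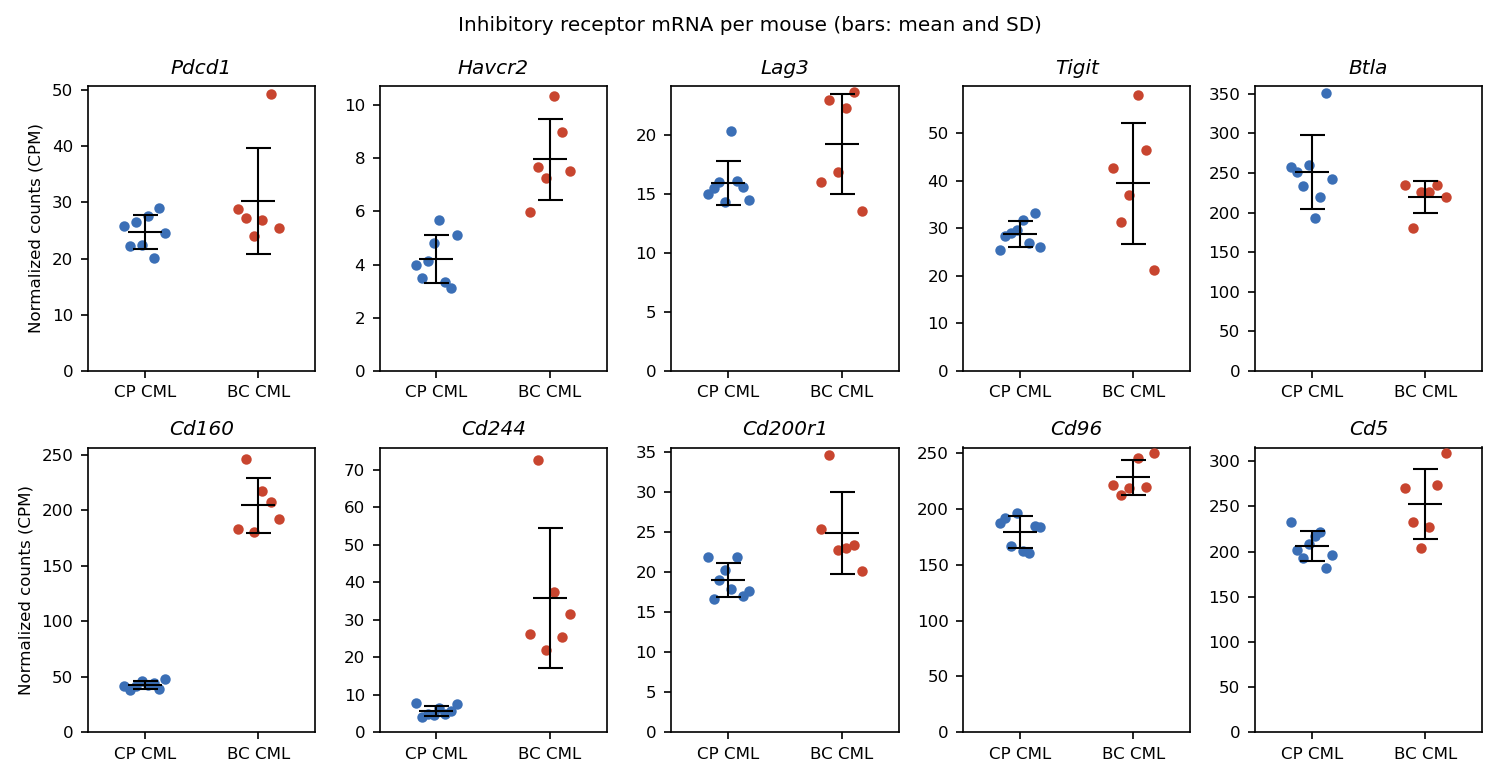
Normalized counts (CPM, each axis from 0) of the 10 receptors, 1 point per mouse, for 8 CP CML and 6 BC CML mice, with mean and SD. The groups separate for Havcr2, Cd160, Cd244 and Cd96, and 1 BC CML mouse stands apart for Pdcd1 (49.2 CPM) and another for Cd244 (72.5 CPM).

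Cd244 and Cd160 changed most. Cd244 (2B4) is a receptor of the SLAM family that binds CD48 and is found on NK cells and on antigen-experienced CD8+ T cells. Its level was 4.03, 5.21 and 7.75 CPM (lowest, median and highest) in CP CML and 21.9, 29.0 and 72.5 CPM in BC CML. All BC CML mice were well above the CP CML mice, and BC CML replicate 2 was far above the other BC CML mice. The means were 5.69 ± 1.40 (SD, n = 8) and 35.9 ± 18.7 CPM (n = 6), and the log2 fold change was 2.65 (SE 0.27, adjusted p = 8.46e-07, edgeR). Without BC CML replicate 2 it was 2.33. Its place among all tested genes by size of change was percentile 98.4.

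Cd160 is a glycolipid-anchored receptor of the immunoglobulin family that binds HVEM (Tnfrsf14) and, like Cd244, is shared by NK and CD8+ T cells. Its level was 38.4, 42.4 and 48.2 CPM in CP CML and 180.4, 199.8 and 246.2 CPM in BC CML. The spread among mice was small in both groups, with a coefficient of variation of 7.88% and 12.2%, and the groups were far apart. The log2 fold change was 2.25 (SE 0.07, adjusted p = 3.34e-14), at percentile 97.3 of all tested genes by size.

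Havcr2 (TIM-3), which binds galectin-9 and CEACAM1, was low in both groups. It was read at 3.13, 4.06 and 5.67 CPM in CP CML and at 5.99, 7.59 and 10.4 CPM in BC CML. The lowest BC CML mouse lay just above the highest CP CML mouse. This was a log2 fold change of 0.92 (SE 0.15, adjusted p = 2.91e-05). Outside T cells, macrophages and dendritic cells are known to carry Havcr2.

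The NK marker sum moved with these 3 receptors. All 6 NK markers that could be tested rose, where 32.6% of all tested genes were called higher. Ncr1, a defining receptor of NK cells, rose from 2.61 ± 0.95 to 10.5 ± 6.00 CPM and Klrb1c from 49.7 ± 6.69 to 147 ± 40.8. Klra8 was nearly absent in CP CML, with 0 to 5 reads per library against 185 to 326 in BC CML. Its log2 fold change of 6.73 (SE 0.26) stood apart from those of the other tested NK markers, 1.28 (Klrk1) to 2.01 (Ncr1). Why Klra8 stood apart was not tested. An NK score over the list had a correlation of 0.98 with the group label itself, with Klra8 included and no score made without it. When that score was added to the fit, Cd160 stayed past the threshold (log2 fold change 1.45, SE 0.25, adjusted p = 0.00500), while Cd244 was at -0.69 (SE 0.81, adjusted p = 0.730) and Havcr2 at -0.19 (SE 0.63, adjusted p = 0.916), and 1 of the 10 receptors was called, beside 2.29% of all genes in that fit. With a naive T cell score, which had a correlation of -0.95 with the group, 2 were called, Cd160 (1.63, SE 0.16) and Cd96 (0.68, SE 0.16), beside 15.4% of all genes. With a myeloid score, which had a correlation of 0.78, 5 were called (Cd160, Cd244, Havcr2, Cd200r1 and Cd96), beside 43.5% of all genes. The share of all genes called thus fell with each score too, from 65.2%. These scores and the genotype move together, so their shares in the receptor values cannot be told apart by such fits.

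Tigit and Cd96 bind the same nectin-like ligands as the activating receptor Cd226 (DNAM-1), with CD155 (Pvr) the ligand that the 3 receptors share. Tigit was read at 25.5, 28.7 and 33.3 CPM in CP CML and 21.2, 39.8 and 58.1 CPM in BC CML. The BC CML mice were spread widely, with replicate 6 below every CP CML mouse, replicate 2 within the CP CML range and the other 4 above it. The log2 fold change was 0.45 (SE 0.17, adjusted p = 0.0262), and the call was lost without BC CML replicate 1 (0.43, adjusted p = 0.0526), replicate 4 (0.31, adjusted p = 0.0762) or replicate 5 (0.40, adjusted p = 0.0639). Tigit lies inside Zbtb20 on the opposite strand, a gene that rose by a log2 fold change of 0.75 (SE 0.08). The strand setting of the counting is not given in the sources used here, so reads of the overlap cannot be assigned with certainty.

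Cd96 was read at 160.3, 184.3 and 196.5 CPM in CP CML and 212.6, 220.5 and 250.2 CPM in BC CML. The groups did not overlap, and the spread was narrow in both, so a modest log2 fold change of 0.35 (SE 0.05, adjusted p = 2.09e-05) passed the test. It kept its call when any 1 mouse was left out, with values between 0.32 and 0.37. Scaled to the summed reads of the CD3 chains it was at 0.20 (adjusted p = 0.00523). With the NK score the call was lost (0.43, SE 0.25, adjusted p = 0.426).

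Cd226 rose from 121 ± 9.20 to 217 ± 26.2 CPM (log2 fold change 0.84, SE 0.07, adjusted p = 9.28e-09), without overlap. It kept its call with the myeloid score (0.83, adjusted p = 2.18e-05). The call was lost with the naive score (0.48, SE 0.20, adjusted p = 0.116) and the NK score (-0.03, SE 0.24, adjusted p = 0.966). The ratios below were not fitted with these scores. To set the activating receptor against each inhibitory one within a mouse, the log2 ratio of their reads was taken, which needs no scaling between libraries and is not corrected for gene length. The ratio of Cd226 to Cd96 was -0.56 ± 0.19 in CP CML and -0.08 ± 0.24 in BC CML, higher by 0.49 (exact permutation test over 3003 splits, two-sided, p = 0.00266, adjusted over 2 ratios 0.00533). In 5 of 6 BC CML mice it was above every CP CML mouse. The ratio of Cd226 to Tigit was 2.08 ± 0.20 and 2.52 ± 0.50, higher by 0.45 (exact permutation p = 0.0453, adjusted 0.0453), with 4 of 6 BC CML mice above every CP CML mouse. That result rests on few mice, since leaving out 1 mouse gave differences of 0.32 to 0.57 and p-values up to 0.106, above 0.05 without CP CML replicate 2, 3, 4, 5 or 7 or without BC CML replicate 1, 2, 3 or 6.

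**Figure D2:**
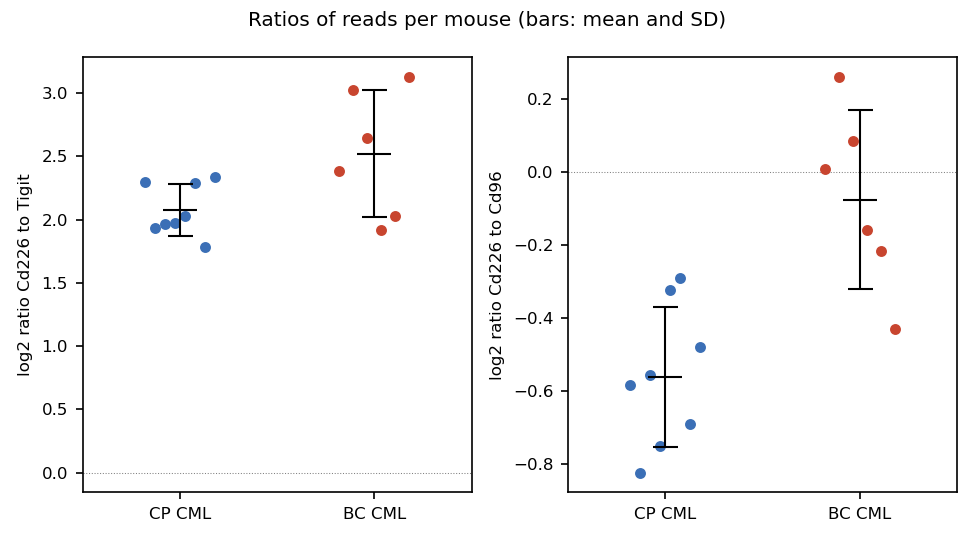
Log2 ratio of reads of Cd226 to Tigit (left) and to Cd96 (right) in each of 8 CP CML and 6 BC CML mice, with mean and SD, the dotted line marking equal reads. The ratio to Cd96 lies above the CP CML range in 5 BC CML mice, and the ratio to Tigit in 4.

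Cd200r1, Cd5 and Btla are also present on T cells that have not met antigen recently. Cd200r1, the receptor of CD200, signals through Dok adaptors rather than phosphatases. It was read at 16.7, 18.5 and 21.9 CPM in CP CML and at 20.2, 23.2 and 34.7 CPM in BC CML. The groups overlapped through 1 low BC CML mouse, and replicate 2 was the highest. Its log2 fold change was 0.38 (SE 0.10, adjusted p = 0.00372) and 0.27 without replicate 2.

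Of the neighbouring paralogs, whose similar sequence makes the assignment of reads less certain, Cd200r4 rose by a log2 fold change of 1.82 (SE 0.13, adjusted p = 1.75e-09) and Cd200r3 fell by 1.01 (SE 0.32, adjusted p = 0.00943). Cd200r2 did not pass the filter on low counts, with 0 to 3 reads in CP CML and 9 to 88 in BC CML.

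Cd5, which is set by the strength of self-recognition in the thymus and is on nearly all T cells, was read at 182.2, 205.0 and 232.5 CPM in CP CML and 203.7, 251.5 and 308.9 CPM in BC CML. In 4 of 6 BC CML mice it was above the CP CML range, and the ranges overlapped through the other two. Cd5 rose by a log2 fold change of 0.29 (SE 0.08, adjusted p = 0.00469). Scaling to the summed reads of the CD3 chains, which took the median of all genes from -0.01 to -0.15, left Cd5 at 0.14 (adjusted p = 0.0699) and Tigit at 0.31 (adjusted p = 0.120), both short of the threshold. That scale moves with Cd3g, the 1 chain of the 4 that rose.

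Btla, which binds HVEM as Cd160 does, was the only member with a negative log2 fold change, -0.19 (SE 0.11, adjusted p = 0.125). It was read at 192.8, 247.0 and 351.4 CPM in CP CML and 180.4, 226.0 and 234.7 CPM in BC CML, so the BC CML mice lay within or just below the CP CML range. Scaling to the CD3 chains gave -0.34 (adjusted p = 0.0190), and leaving out CP CML replicate 5 gave -0.24 (adjusted p = 0.0400), both past the threshold. Without CP CML replicate 7, the highest of its group, it was -0.11 (adjusted p = 0.207). B cells are known to carry Btla too. Btla is also the member whose 3′UTR held the seed matches shown above, and it did not pass the test in either direction.

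Pdcd1 and Lag3 are among the receptors used to describe exhausted T cells, as are Havcr2 and Tigit, which rose. Pdcd1 and Lag3 did not pass the test. Pdcd1 (PD-1) was read at 20.0, 25.1 and 29.0 CPM in CP CML and 24.1, 27.0 and 49.2 CPM in BC CML. Of the BC CML mice 5 lay within the CP CML range, and replicate 5 was the only one above it. The log2 fold change was 0.29 (SE 0.14, adjusted p = 0.0902), and 0.09 (adjusted p = 0.328) without that mouse. The name of that sample ends in letters that no other name has, and what they mean is not given in the sources used here.

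Lag3, which binds MHC class II, was read at 14.3, 15.5 and 20.3 CPM in CP CML and 13.6, 19.5 and 23.6 CPM in BC CML. Of the 6 BC CML mice 3 were above the CP CML range, 2 were within it and 1 was below it. The log2 fold change of 0.27 (SE 0.12, adjusted p = 0.0532) sat at the threshold. The likelihood ratio test gave an adjusted p of 0.0468 and DESeq2 one of 0.0423, and leaving out CP CML replicate 5 (adjusted p = 0.0174) or BC CML replicate 1 (0.0327), 3 (0.0418) or 6 (0.00709) also took it past the threshold. Leaving out BC CML replicate 2, 4 or 5 moved it away from the threshold (adjusted p = 0.132, 0.129 and 0.151), as did scaling to the CD3 chains (0.336).

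Levels per kilobase of gene length (CPM per kb) allow the receptors to be ranked against each other. In CP CML the order of mean levels was Cd5 (100.4), Btla (77.8), Cd96 (45.4), Tigit (30.1), Cd160 (16.3), Pdcd1 (12.9), Lag3 (7.97), Cd200r1 (5.71), Havcr2 (1.55) and Cd244 (1.40). The ranges over mice of Cd5 and Btla, of Cd160 and Pdcd1, and of Havcr2 and Cd244 overlapped, and those of the other neighbours did not. In BC CML the order was Cd5 (122.8), Cd160 (77.6), Btla (68.2), Cd96 (57.8), Tigit (41.1), Pdcd1 (15.7), Lag3 (9.63), Cd244 (8.82), Cd200r1 (7.47) and Havcr2 (2.93). Cd160 ranked 5 in CP CML and 2 in BC CML, though its range overlapped that of Btla, which it exceeded in 4 of 6 mice. The ranges of Btla and Cd96, of Cd96 and Tigit, of Tigit and Pdcd1, of Lag3 and Cd244, and of Cd244 and Cd200r1 overlapped as well, and Cd244 exceeded Cd200r1 in 3 of 6 mice.

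As a share of the summed level of the 10 receptors per kb, Cd160 was 5.44% ± 0.55 in CP CML and 18.8% ± 2.20 in BC CML. Btla was 25.9% ± 3.63 and 16.6% ± 1.75. The sum itself was 299 ± 14.2 and 412 ± 25.7 CPM per kb.

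**Figure D3:**
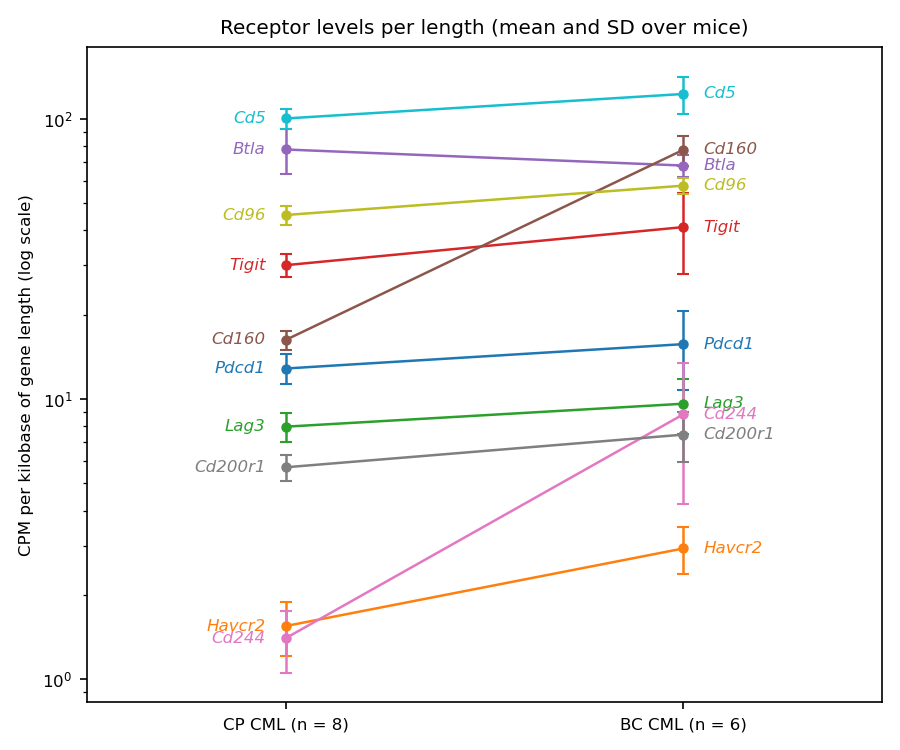
Mean level of each receptor in CPM per kilobase of gene length (log scale) in CP CML (n = 8) and BC CML (n = 6), with SD over mice. Cd160 goes from rank 5 to 2 and Cd244 from 10 to 8, and Btla is the only line that falls.

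Tigit, Cd200r1, Btla and Cd96 lie within 2.47 Mb of each other on chromosome 16 (43648861 to 46120248 of mm10), an interval that also holds Cd200 and the Cd200r paralogs. Of its 36 genes 24 could be tested and 17 were called (70.8%), 11 higher and 6 lower, with a median log2 fold change of 0.12, beside 65.2% called over all tested genes. Risen and fallen genes lay among each other along it, with Cd200r4 and Cd200r3 as neighbours among the tested genes.

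**Figure D4:**
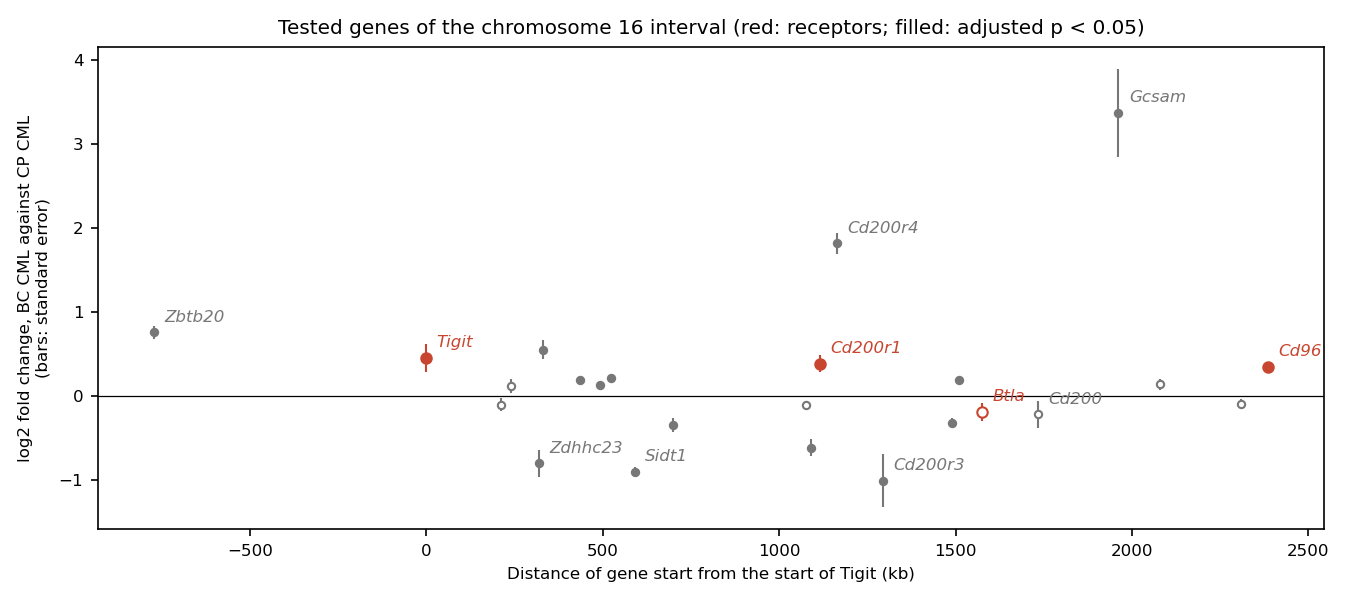
Log2 fold change (BC CML against CP CML) with SE of the 24 tested genes of the chromosome 16 interval, by the distance of the gene start from that of Tigit in kb. Filled points passed an adjusted p of 0.05 and receptors are in red. Risen (11) and fallen (6) genes lie among each other along the interval.

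Ligands of the receptors were read in the same libraries. Of the 14 listed, 12 could be tested, of which 8 rose, 1 fell and 3 did not pass the test, with a median log2 fold change of 0.35 against -0.01 over all genes, of which 65.2% were called. Scaled to the CD3 chains 7 rose and 3 fell, beside 71.1% of all genes called. Cd274 (PD-L1), the ligand of PD-1, rose from 66.5 ± 7.04 to 122 ± 10.2 CPM (log2 fold change 0.87, SE 0.07, adjusted p = 5.58e-09). Lgals3 (galectin-3), a ligand of LAG-3, rose by 1.31 (SE 0.13, adjusted p = 2.62e-07), and Hmgb1, a ligand of TIM-3, by 0.30 (SE 0.03, adjusted p = 6.90e-07). Of the other ligands named with the receptors above, Ceacam1 rose by 2.06 (SE 0.38, adjusted p = 2.51e-04) and Cd48 by 0.17 (SE 0.04, adjusted p = 0.00289). Lgals9 (galectin-9, 0.01), Tnfrsf14 (0.01) and Cd200 (-0.22) did not pass the test. Nectin3, a ligand of the Tigit family, had 0 to 2 reads per library in CP CML and 13 to 27 in BC CML. Pvr was the 1 ligand that fell, by 0.43 (SE 0.06, adjusted p = 4.98e-06), from 47.5 ± 3.10 to 35.1 ± 3.26 CPM without overlap, in the same libraries in which Tigit, Cd96 and Cd226 rose. With the myeloid score as a covariate 6 ligands were called, 5 higher and 1 lower, and with the naive score 1, beside 43.5% and 15.4% of all genes in those fits. These markers moved with the groups, and their part in the ligand values was not tested further.

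Signalling genes that act below the receptors were mixed in direction. Of the 19 listed and tested, 7 rose, 4 fell and 8 did not pass the test, with a median log2 fold change of 0.11. The 11 called compare with 65.2% of all tested genes. Scaled to the CD3 chains 13 were called, 5 higher and 8 lower, beside 71.1% of all genes, whose median moved to -0.15. The balance of directions thus depends on the scaling. Ptpn6 (SHP-1) rose from 257 ± 36.8 to 492 ± 49.6 CPM (log2 fold change 0.94, SE 0.09, adjusted p = 8.72e-08) and Ptpn11 (SHP-2) from 139 ± 5.44 to 180 ± 12.3 CPM (0.37, SE 0.04, adjusted p = 5.14e-07). Rasa1, the Ras inhibitor recruited by Cd200r1 through Dok proteins, rose by 0.90 (SE 0.05, adjusted p = 2.01e-11). Sh2d1a (SAP), the adaptor of Cd244, rose by 0.26 (SE 0.05, adjusted p = 1.29e-04). The 4 that fell were Grb2 (-0.17), the ubiquitin ligases Cbl (-0.19) and Cblb (-0.27), and Ubash3b (-0.21, adjusted p = 0.0402). The call of Ubash3b was lost without CP CML replicate 1, 2, 4, 7 or 8 or without BC CML replicate 1, 2, 3 or 6, and the values ranged from -0.25 to -0.17 with 1 mouse left out.

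**Figure D5:**
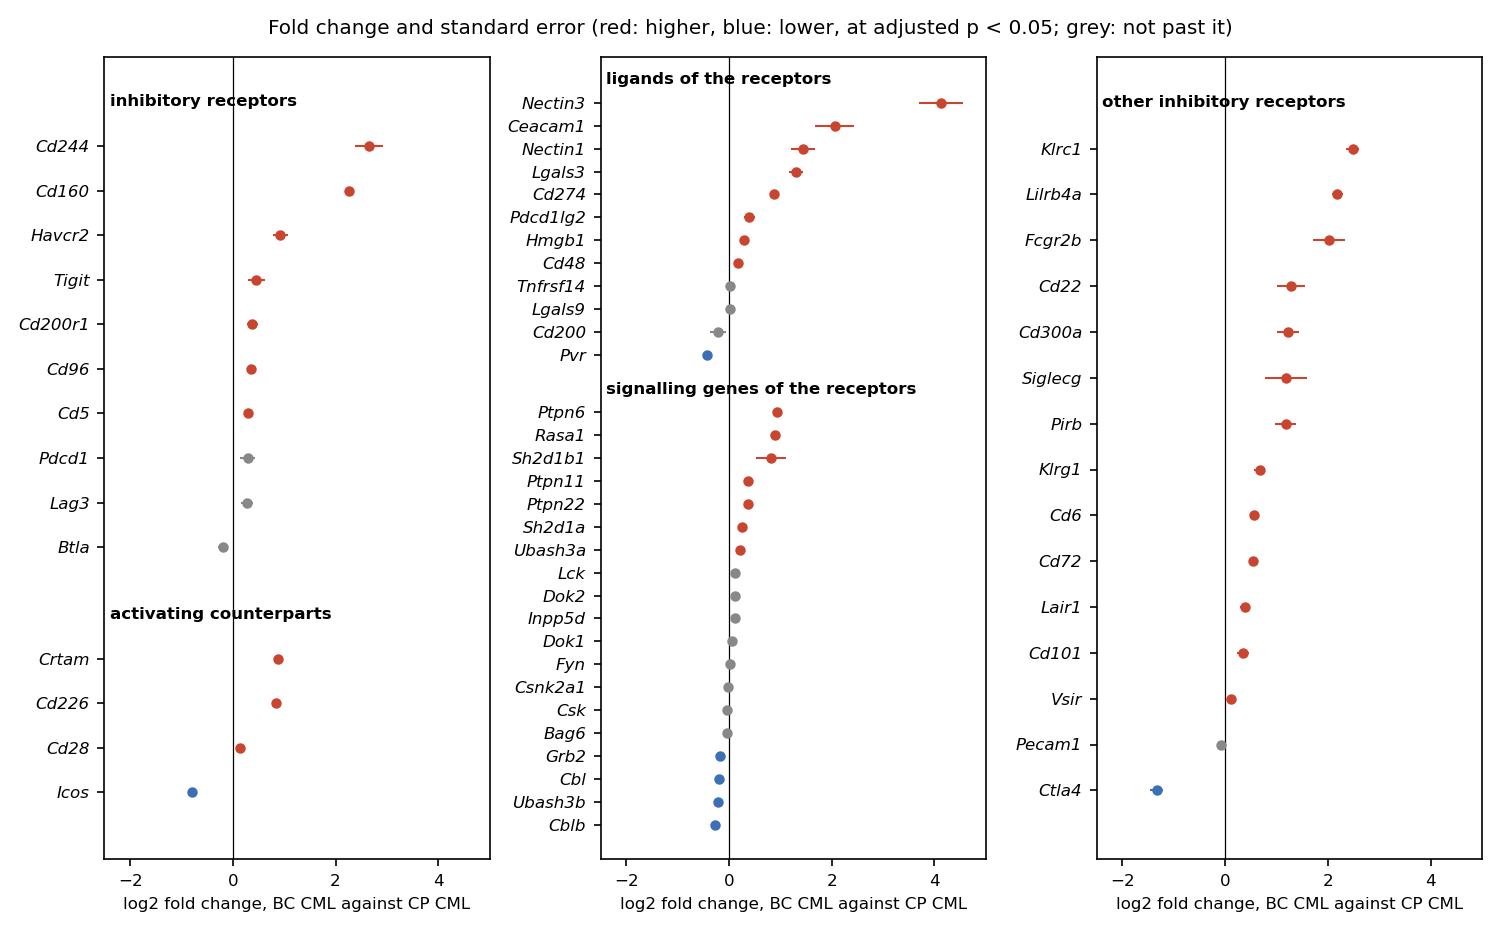
Log2 fold change (BC CML against CP CML) with SE for the 10 receptors and 4 activating counterparts (left), the tested ligands and signalling genes (middle) and 15 other inhibitory receptors (right). Red and blue points passed an adjusted p of 0.05 as higher or lower and grey points did not, and Ctla4 is the only fallen inhibitory receptor.

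Of 4 activating receptors that pair with these pathways 3 rose, Cd226, Crtam and Cd28, and Icos fell by 0.79 (SE 0.08, adjusted p = 1.14e-07), where 32.6% of all tested genes were called higher and 32.7% lower. Crtam, which shares its family with Cd96 and Tigit, rose by 0.88 (SE 0.05, adjusted p = 5.82e-11), and Cd28, the costimulatory receptor that PD-1 signalling acts on, by 0.14 (SE 0.06, adjusted p = 0.0355).

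Of 15 other inhibitory receptors 13 rose, 1 fell and 1 did not pass the test, with a median log2 fold change of 0.67, beside 65.2% called over all tested genes. Scaled to the CD3 chains 11 rose and 2 fell, beside 71.1% of all genes called. Klrc1 (NKG2A), which is carried by NK cells and some CD8+ T cells, rose from 39.5 ± 7.24 to 221 ± 35.7 CPM (log2 fold change 2.48, SE 0.13, adjusted p = 2.64e-10). Lilrb4a rose by 2.19 (SE 0.11, adjusted p = 5.27e-11), Cd6 by 0.57 (SE 0.05, adjusted p = 1.88e-08) and Cd72 by 0.54 (SE 0.07, adjusted p = 5.73e-06). Ctla4, which competes with CD28 for its ligands, fell from 65.5 ± 9.42 to 25.9 ± 5.89 CPM (-1.34, SE 0.13, adjusted p = 2.86e-07). Foxp3, which defines regulatory T cells, fell beside it from 94.2 ± 8.14 to 28.5 ± 4.32 CPM (-1.73, adjusted p = 1.39e-11), and Cxcr5, a follicular helper marker, fell by 1.17 (adjusted p = 3.30e-04). The rest of both lists did not move with them as a whole: of the 4 regulatory markers 2 rose (Ikzf2 and Tnfrsf18), 1 fell and 1 was not called, and of the 8 follicular helper markers 4 rose (Bcl6, Maf, Il21 and Sh2d1a), 3 fell and 1 was not called. Their part in the values of Ctla4 and Icos was not tested. With the myeloid score 6 of the 15 were called and with the naive score 3, near the 43.5% and 15.4% of all genes called in those fits. Several members (Pirb, Fcgr2b, Cd22, Siglecg) are known from myeloid or B cells.

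Of 14 transcription factors known to act on receptor genes 6 rose, 5 fell and 3 did not pass the test, with a median log2 fold change of 0.10, beside 65.2% called, 32.6% higher and 32.7% lower over all tested genes. Eomes, a T-box factor of memory and exhausted CD8+ T cells and of NK cells, rose from 77.6 ± 14.2 to 257 ± 25.4 CPM (1.73, SE 0.11, adjusted p = 1.50e-09), and the related Tbx21 by 1.12 (SE 0.11, adjusted p = 2.12e-07). Tcf7, which marks naive and stem-like cells, fell by 0.67 (SE 0.06, adjusted p = 7.09e-08). Prdm1 (-0.88, SE 0.11), Batf (-0.61, SE 0.06) and Irf4 (-0.54, SE 0.10), which act in effector and exhausted cells, fell as well. Among the other factors on the list Tox rose by 0.37 (SE 0.08, adjusted p = 5.38e-04) and Tox2 fell by 0.36 (SE 0.14, adjusted p = 0.0287). Nr4a2, an orphan nuclear receptor induced by antigen receptor signals, rose by 0.90 (SE 0.16, adjusted p = 7.72e-05) and Maf by 0.55 (SE 0.10, adjusted p = 2.84e-04). The related Nr4a1 (0.09, adjusted p = 0.412) and Nr4a3 (0.38, adjusted p = 0.0731) did not pass the test.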

How the data were processed

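RNA-seq counts of spleen T cells were used, 1 library per mouse. According to the study's methods and the submitters' processing notes, reads were trimmed with Trimmomatic, aligned to mm10 with STAR (2.6.0) and counted per gene with HTSeq (0.11.1). The authors deposited raw counts of 24091 genes with position and length, without normalization. The annotation and the strand setting of the counting are not given in the sources used here. Columns were matched to mice by name.

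After filterByExpr by group (12248 genes left) and TMM scaling, edgeR 4.0.16 set BC CML against CP CML (robust glmQLFit and glmQLFTest, with limma 3.58.1 in R 4.3.3), with no other term in the model. P-values were adjusted by Benjamini-Hochberg, with a threshold of 0.05. The SE was computed from the log2 fold change and the F statistic. CPM uses the TMM-scaled library size, and CPM per kb divides it by the deposited gene length. For ratios of 2 genes, all 3003 ways to split the mice were enumerated in an exact permutation test, two-sided (scipy 1.17.1). Depth was 15703702 to 19914531 reads per library. The fits were tested on simulated counts with 200 of 12184 genes changed. The quasi-likelihood test recovered 194 of them (97%), with 3 other calls. Far fewer genes changed there than the 65.2% called in the data, so that simulation cannot show how the fits do in this setting. Mice of 1 group differed by more than counting noise in every pair, and all libraries were kept as separate mice.

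The receptors and all gene lists were chosen with earlier results of these data known. All 10 receptors are named. Other pathway lists are given by counts and by up to 4 risen and 4 fallen genes with the lowest adjusted p. Members of these lists named beyond those were added after their values were seen. Cell type lists are given by their summed level, and the single markers named with values were chosen after their values were seen. The alternatives were the likelihood ratio test, which the study's methods name, DESeq2 1.42.0, scaling by RLE or by library size alone, leaving out the filter or asking for more than 1 CPM in 6 samples, scaling to the CD3 chains, the replicate number as a block, naive and myeloid scores as covariates, and each mouse left out. The NK score and leaving out BC CML replicates 2 and 5 together were added after seeing the data. Protein sequences are not shown here.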

Additional observations from a re-analysis of the deposited data

Results flagged for a closer look

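In 44 sets of values (10 receptors, 2 ratios and 10 marker sums, each in both groups of mice), the highest or lowest mouse was compared with its neighbour by Dixon's criterion, which flags about 1 in 20 sets by chance, or 2.2 here. It flagged 6.

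BC CML replicate 2 was the outlying mouse in 3 of them. Its Cd244 level was 72.5 CPM, with the next mouse at 37.3. Its Cd200r1 level was 34.7 CPM, with the next at 25.4, and its Btla level was 180.4 CPM, with the next at 219.7. The same mouse had the lowest summed naive T cell markers (2702 CPM) and the highest summed dendritic cell markers (117 CPM) of all mice. The part of these in its receptor values was not tested.

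Pdcd1 was 49.2 CPM in BC CML replicate 5, with the next mouse at 28.8. Btla was 351.4 CPM in CP CML replicate 7, with the next at 260.5, and that mouse had the highest summed naive T cell markers of all mice (6275 CPM). Lag3 was 20.3 CPM in CP CML replicate 5, above the other CP CML mice, and that mouse had the lowest naive sum of its group (4919 CPM). Without BC CML replicates 2 and 5 together 7 receptors were called, beside 60.1% of all genes. Pdcd1 was at 0.09 (adjusted p = 0.387) and Lag3 at 0.12 (adjusted p = 0.390) in that fit, both short of the threshold.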

How the results depend on the processing

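Over the 260 alternative values of the 10 receptors, 225 kept their direction and their side of the threshold, 14 lost the call, 11 gained it and 10 turned sign. Those that turned sign all had the naive or the NK score as a covariate: with the naive score Pdcd1 (-0.16), Lag3 (-0.79), Btla (0.69) and Cd200r1 (-0.43), and with the NK score Havcr2 (-0.19), Lag3 (-0.48), Tigit (-0.32), Btla (0.12), Cd244 (-0.69) and Cd200r1 (-0.34). Among other named genes Cblb (0.049) and Ubash3b (0.17) turned with the naive score and Cd226 (-0.032), Pvr (0.15), Grb2 (0.065) and Cd72 (-0.14) with the NK score. The number of receptors called was 2 with the naive and 1 with the NK score. Of the ligands 1 was called with the naive score. Of the signalling genes 4 were called with the naive and 7 with the myeloid score, and of the other inhibitory receptors 3 and 6. Of all genes 15.4% were called with the naive, 43.5% with the myeloid and 2.29% with the NK score, against 65.2%. The naive and NK scores follow the group closely (correlations of -0.95 and 0.98), and the cause was not tested. Under the other alternatives 5 to 8 receptors were called, beside 43.5% to 71.1% of all genes. With 1 mouse left out 6 to 9 were called, beside 62.8% to 65.2% of all genes. Scaling to the CD3 chains called 5 higher and 1 lower (Btla), beside 71.1% of all genes, with the median of all genes at -0.15 against -0.01.

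The groups share replicate numbers 1 to 6, but the mice are different animals, and same-numbered mice correlated between -0.27 and 0.36 (mean -0.02). With the replicate number as a block 7 receptors were called, beside 59.8% of all genes, with Pdcd1 gained (0.29, adjusted p = 0.0384) and Cd200r1 lost (0.33, adjusted p = 0.0526). With the block, the ratio of Cd226 to Tigit differed by 0.44 and that to Cd96 by 0.48 (exact sign-flip p = 0.0938 for each). Without the block and with 1 mouse left out, the differences ranged from 0.32 to 0.57 and from 0.42 to 0.56.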
